A study of Mus musculus with 16 samples.

Results

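Oat, Glul and 8 further genes of the pericentral liver zone were followed in 16 mouse livers, as 10 of the 53801 gene identifiers in the count table. They were chosen by symbol: Oat, Lhpp, Glul, Slc1a2, Rhbg and Rgn as genes expressed in hepatocytes around the central vein, and Axin2, Lgr5, Tbx3 and Rnf43 as target genes of Wnt signalling. The choice was made with the comparisons of knockout and control livers of these same data in view, so the genotype comparisons of these genes are given below as a description, and a call among them is no test. All 10 passed the filter on low counts that left 14351 genes for testing.

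The livers came from control mice and from mice with a liver-specific knockout of Degs1, the desaturase that inserts the double bond turning dihydroceramide into ceramide. Each genotype was fed normal chow or a high-fat diet, giving 4 groups of 4 livers: chow control, chow knockout, high-fat control and high-fat knockout. The sources used here do not give the Cre driver, strain, sex, age or length of feeding. Each library is labelled as a separate animal, and the animal numbers of the 4 groups do not interleave, so cohort and group cannot be told apart.

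The liver lobule is zoned along the flow of blood from the portal tract to the central vein. Endothelial cells of the central vein secrete Wnt ligands and R-spondin 3, which stabilise beta-catenin in the nearest hepatocytes and switch on the pericentral programme. Glutamine synthetase, encoded by Glul, is confined to the innermost ring of hepatocytes, where it captures ammonia that escaped the urea cycle. Ornithine aminotransferase, encoded by Oat, works in the same ring and turns ornithine into glutamate semialdehyde, and thus feeds glutamate to glutamine synthetase. Axin2, Lgr5, Tbx3 and Rnf43 are used as readouts of Wnt signalling strength in liver.

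The sequence before the start site is shown for Oat and Glul, the pair of enzymes the comparisons turn on, for Axin2 as the standard Wnt readout, and for Slc1a2, the one promoter that held a searched motif. These are RefSeq sequences on GRCm38.p6, written 5′ to 3′ on the gene's strand, and 5 of the 10 genes were in the promoter table. Oat is the 250 bases at chr7:132576399-132576648 (minus strand), Glul the 250 bases at chr1:153899679-153899928 (plus), Axin2 the 250 bases at chr11:108920099-108920348 (plus), and Slc1a2 the first 100 bases of its stretch, chr2:102706188-102706287 (plus).
Oat: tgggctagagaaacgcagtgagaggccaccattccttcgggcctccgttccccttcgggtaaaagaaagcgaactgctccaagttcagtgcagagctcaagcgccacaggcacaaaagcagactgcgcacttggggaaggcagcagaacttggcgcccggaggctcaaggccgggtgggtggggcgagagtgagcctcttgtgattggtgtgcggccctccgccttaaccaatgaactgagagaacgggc
Glul: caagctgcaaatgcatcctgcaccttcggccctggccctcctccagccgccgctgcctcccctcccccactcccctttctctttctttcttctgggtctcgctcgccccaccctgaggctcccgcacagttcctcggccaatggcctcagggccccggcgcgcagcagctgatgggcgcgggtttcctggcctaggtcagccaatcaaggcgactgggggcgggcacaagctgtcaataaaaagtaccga
Axin2: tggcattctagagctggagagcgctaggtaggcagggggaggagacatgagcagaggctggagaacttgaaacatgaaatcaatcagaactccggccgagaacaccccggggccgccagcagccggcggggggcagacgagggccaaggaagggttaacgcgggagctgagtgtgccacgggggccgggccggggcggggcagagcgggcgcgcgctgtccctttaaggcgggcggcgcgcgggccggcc
Slc1a2: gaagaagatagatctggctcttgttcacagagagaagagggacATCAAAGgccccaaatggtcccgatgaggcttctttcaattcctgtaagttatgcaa
Capitals mark the match to the motif of the TCF/LEF factors through which beta-catenin acts. The motif was searched as CTTTGAT and CTTTGAA, on both strands, so that ATCAAAG and TTCAAAG also counted. It was found in 1 of the 6 promoters of the 5 genes (Rnf43 had a pair of starts), in Slc1a2 as ATCAAAG beginning 207 bases before a start site that lies inside the gene. Of all 32851 mouse promoters in the table, 2457 (7.48%) held it in the same 250 bases. A match of letters is a description and not a binding site, and its lack in a window this short says nothing about the factor.

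Total counts were 11938596 to 23250885 per liver, at which 3 counts correspond to 0.135 to 0.293 CPM (read counts scaled to a common library total with TMM factors). Degs1 was at 80.4 to 87.9 CPM in chow controls and 35.9 to 39.3 in chow knockouts, and at 60.2 to 101 in high-fat controls and 26.1 to 41.6 in high-fat knockouts, without overlap within a diet. High-fat control 3 and chow knockout 1 stood at opposite ends of the second principal component (64.7 and -51.1, against -26.2 to 23.9 for the other livers). The share of counts on sense-intronic and unverified gene models, a gauge of unspliced RNA, was 0.0218% in high-fat control 3 and 0.0512% to 0.164% in the other high-fat controls. It was 0.162% to 0.191% in high-fat knockouts, 0.0263% to 0.0411% in chow controls and 0.0463% to 0.0878% in chow knockouts, so it moved with diet and with genotype. Summed CPM of 7 hepatocyte markers was 120131 to 134791 in chow controls and 133564 to 157944 in chow knockouts, then 91729 to 119620 in controls and 74957 to 94106 in knockouts on the high-fat diet.

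The genes spanned a wide range of expression. Per kilobase of exon, the chow control means were 958 CPM for Rgn, 437 for Glul and 399 for Oat. Lhpp (21.5) and Slc1a2 (21.1) formed a middle tier. Tbx3 (3.68), Rnf43 (3.47), Axin2 (1.23), Rhbg (1.18) and Lgr5 (0.681) were lowest. Rhbg, Axin2 and Lgr5 thus rest on few reads, with 7 to 103, 48 to 336 and 53 to 228 counts per liver. Tbx3 had 167 to 818, Rnf43 195 to 844, Lhpp 428 to 1201 and Oat 5853 to 26979. In whole tissue, fewer cells of a type and less RNA per cell cannot be told apart, and a gene restricted to a narrow ring of cells is diluted by the rest of the liver.

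**Figure D1:**
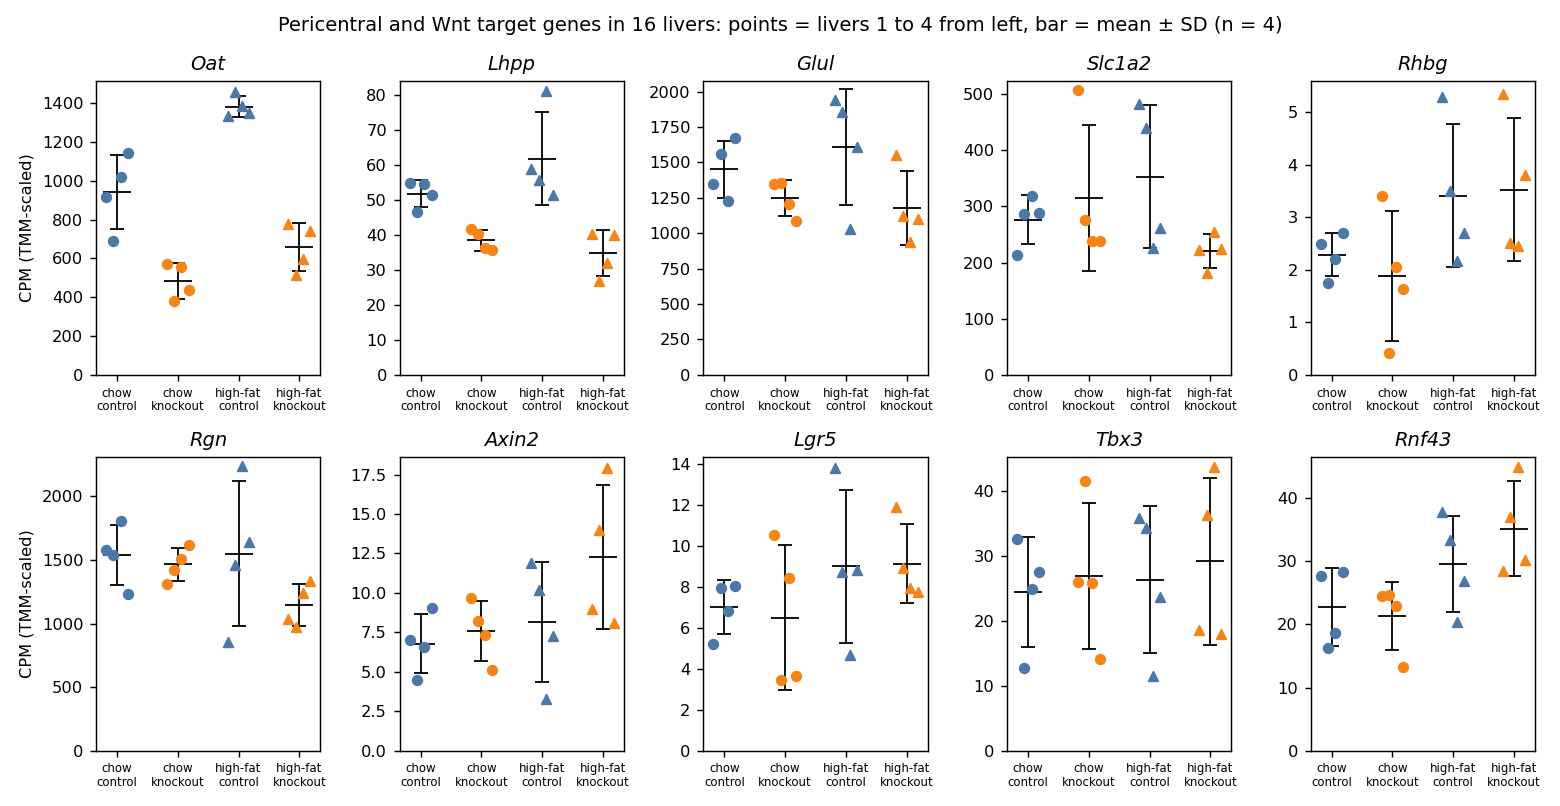
Level of each of the 10 genes in every liver, in TMM-scaled CPM on linear axes from 0 (points, livers 1 to 4 from left to right; bars, mean ± SD, n = 4). Oat and Lhpp were lower in every knockout than in every control of the same diet, and the other 8 genes overlapped between genotypes on both diets.

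Oat (ENSMUSG00000030934; GRCm38 chromosome 7, 132557478 to 132576398, minus strand) showed the clearest separation of genotypes. It was at 915, 691, 1019 and 1141 CPM in chow controls 1 to 4 and at 571, 378, 554 and 437 in chow knockouts 1 to 4. On the high-fat diet it was at 1335, 1459, 1382 and 1349 CPM in controls and at 777, 516, 595 and 741 in knockouts. Every knockout liver was below every control of its diet, with a gap from 571 to 691 on chow and from 777 to 1335 on the high-fat diet. The high-fat controls were also the tightest group, at 1381 ± 55.6 CPM (SD, n = 4), against 941 ± 191 in chow controls, 485 ± 92.9 in chow knockouts and 657 ± 122 in high-fat knockouts. In order of level the groups ran from high-fat control through chow control and high-fat knockout to chow knockout. The first step left no overlap, whereas chow control and high-fat knockout overlapped through chow control 2, and the knockouts of the 2 diets overlapped between 516 and 571 CPM. The fitted log2 fold change of knockout against control was -0.96 (SE 0.18) on chow and -1.07 (SE 0.18) on the high-fat diet.

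Lhpp (ENSMUSG00000030946; chromosome 7, 132610638 to 132706420, plus strand) encodes phospholysine phosphohistidine inorganic pyrophosphate phosphatase, which removes phosphate from histidine residues. Its levels were 54.8, 46.5, 54.6 and 51.4 CPM in chow controls and 41.7, 40.3, 36.3 and 35.6 in chow knockouts. They were 58.9, 55.8, 81.3 and 51.3 CPM in high-fat controls and 40.4, 26.9, 31.9 and 39.9 in high-fat knockouts. Again each knockout was below each control of its diet, with high-fat control 3 far above its group. The log2 fold changes were -0.43 (SE 0.16) on chow and -0.83 (SE 0.16) on the high-fat diet, and -0.65 on the high-fat diet without high-fat control 3.

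Oat and Lhpp were the only members that separated the genotypes without overlap, 2 of 10 on each diet and all of them lower. The same held for 2.9% of all tested genes on chow, 7.78% on the high-fat diet and 0.613% (88 genes) on both. As a description, an adjusted p under 0.05 in edgeR's quasi-likelihood fit over all genes was reached on chow by 0 of the 10 (0.0139% of all genes in either direction), with 2 under an unadjusted p of 0.05 (9.52% of all genes), 1 with DESeq2 (Oat) and 0 with limma-voom. On the high-fat diet it was reached by 2, Oat and Lhpp, both lower (0.0488% of all genes lower). These contrasts chose the members, so the counts follow from the choice and nothing is read from them. The high-fat count of 2 was 0 with high-fat control 2, high-fat control 4, high-fat knockout 2 or high-fat knockout 3 left out, and 0 in a fit that also held the unspliced share, where Oat was still at -1.12 and Lhpp at -0.64. With single livers left out, Lhpp was called only without chow control 3 or high-fat knockout 4 and missed the threshold in the other 14 fits. Oat passed on chow when chow control 2 was left out.

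**Figure D2:**
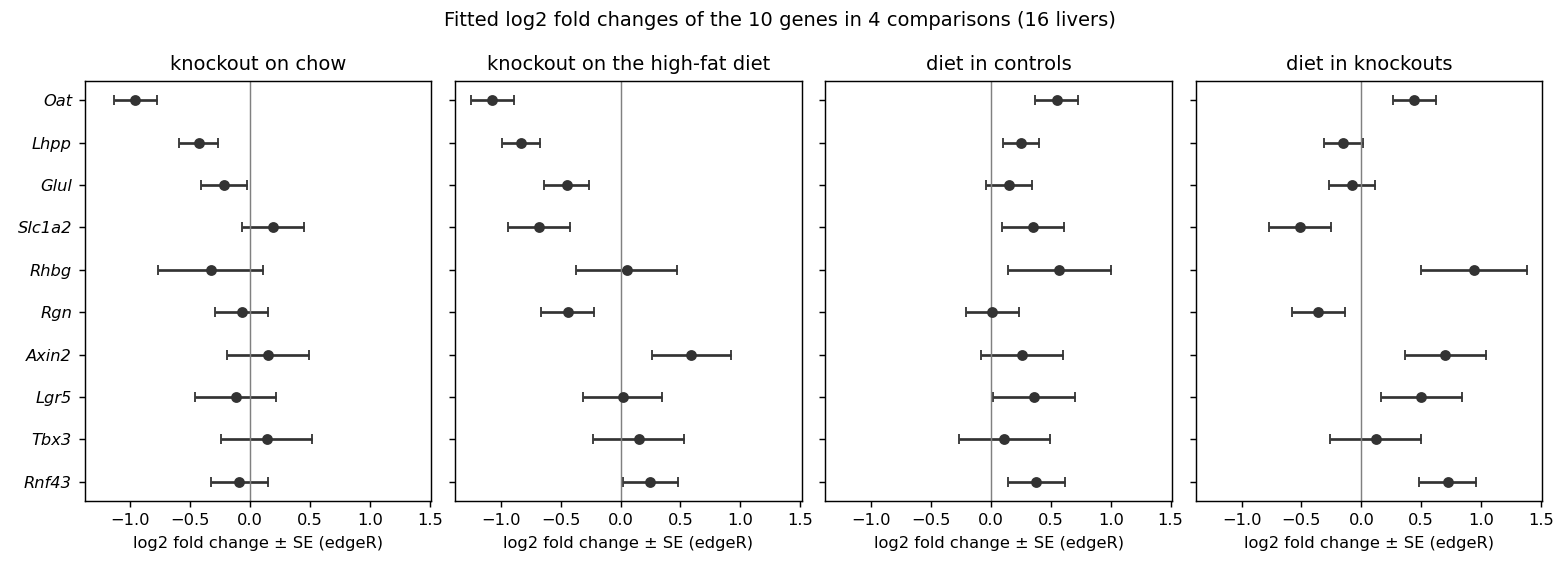
Fitted log2 fold changes of the 10 genes (points) with their standard errors (bars) in 4 comparisons: knockout against control on chow and on the high-fat diet, and high-fat diet against chow in controls and in knockouts. Oat lay at -0.96 and -1.07 in the genotype panels and at 0.55 and 0.44 in the diet panels, and the 4 Wnt readouts lay within 0.59 of zero in both genotype panels.

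Oat and Lhpp are neighbours. Their start sites are 34.2 kb apart and the genes run away from each other. Between them lie Nkx1-2 (0 to 1 counts per liver) and Gm16764 (0 to 3), and an annotated Fgfr2 model spans both genes. Fgfr2, a fibroblast growth factor receptor, had 465 to 1403 counts per liver and log2 fold changes of -0.09 (SE 0.17) and -0.08 (SE 0.17) in knockouts on chow and on the high-fat diet. The sources used here do not say whether reads were assigned by strand, so reads shared between these overlapping models cannot be told apart.

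Of 26 gene identifiers that reach within 500 kb of Oat, 11 were tested, and none of the 9 besides Oat and Lhpp was lower in every knockout than in every control on either diet. Their log2 fold changes ran from -0.09 to 1.39 on chow and from -0.24 to 1.42 on the high-fat diet. The upper ends belonged to the low-count model Gm44891 (SE 1.24 and 0.80). Chst15, a sulfotransferase gene on the side away from Lhpp (-259 kb), was at 0.14 (SE 0.15) and 0.39 (SE 0.15). Fam53b, 237 kb beyond the Oat start in the direction of Lhpp, was at -0.02 on chow and 0.56 (SE 0.24) on the high-fat diet, where all its knockouts were above all controls.

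**Figure D3:**
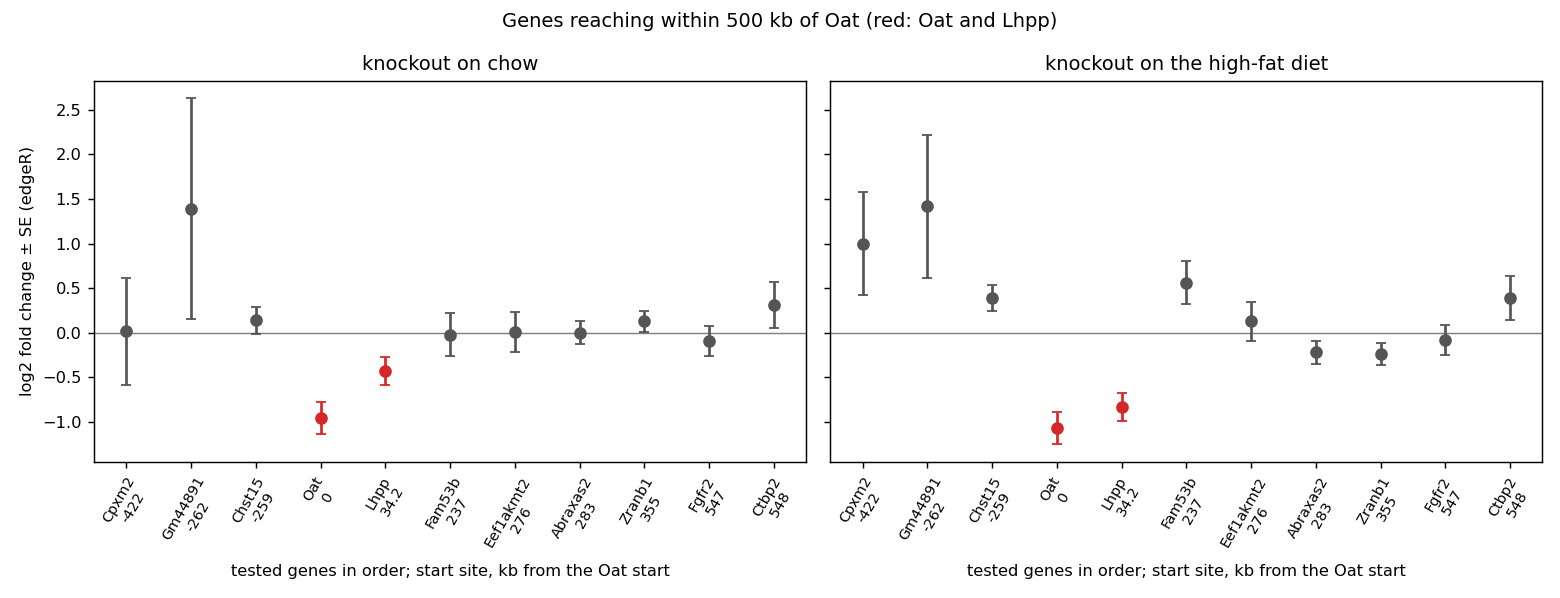
Log2 fold change of knockout against control (points, with SE bars) for the 11 tested genes that reach within 500 kb of Oat, in order along the chromosome with the distance of each start from that of Oat in kb. Oat at 0 and Lhpp at 34.2 kb (red) lay below zero on both diets, while the other 9 lay between -0.24 and 1.42.

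Across livers of the same group, Oat and Lhpp also tended to deviate from the group mean together. Over the 16 livers, the deviations of log2 CPM had Pearson's r of 0.47 (permutation p = 0.0449, or 0.0898 adjusted over the 2 pairs examined) and Spearman's rho of 0.57 (permutation p = 0.0268, adjusted 0.0535). With the 2 livers farthest from the median of Oat left out, r was 0.54. The adjusted values miss 0.05. Another member, Lgr5, had a similar r with Oat, 0.42, which was not tested. For Oat with Glul, r was 0.16 (permutation p = 0.518) and rho 0.19 (permutation p = 0.489), with r of 0.37 without the same 2 livers.

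The ratio of the 2 genes in a liver, which needs no library scaling, overlapped between genotypes on both diets. Counts of Oat were 14.8 to 22.2 times those of Lhpp in chow controls and 9.37 to 15.3 times in chow knockouts. In high-fat controls the ratio was 17 to 26.3, and in high-fat knockouts it lay in the narrow band of 18.6 to 19.2. On chow the ranges of the ratio met between 14.8 and 15.3, and on the high-fat diet the knockout band lay inside the control range.

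Glul (ENSMUSG00000026473; chromosome 1, 153899944 to 153909723, plus strand), the partner of Oat in glutamine formation, did not separate the genotypes. It was at 1350, 1563, 1228 and 1673 CPM in chow controls and 1345, 1356, 1208 and 1090 in chow knockouts. High-fat controls had 1940, 1858, 1030 and 1608 CPM and high-fat knockouts 1552, 1123, 941 and 1098. On chow, knockouts 3 and 4 were below all controls and the other 2 within their range. On the high-fat diet, knockout 3 alone was below all controls, and high-fat control 3 lay below 3 of the 4 knockouts. The log2 fold changes were -0.22 (SE 0.19) on chow and -0.45 (SE 0.19) on the high-fat diet, and -0.59 on the high-fat diet without high-fat control 3.

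The count ratio of Oat to Glul was lower in knockouts on average. It was 0.442 to 0.83 in chow controls and 0.279 to 0.458 in chow knockouts, overlapping through chow control 2. On the high-fat diet it was 0.688 to 1.34 in controls and 0.46 to 0.674 in knockouts, without overlap. The means of the log2 ratio were -0.64 ± 0.38 and -1.38 ± 0.31 on chow and -0.18 ± 0.42 and -0.84 ± 0.26 on the high-fat diet, for control and knockout in turn (SD, n = 4).

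**Figure D4:**
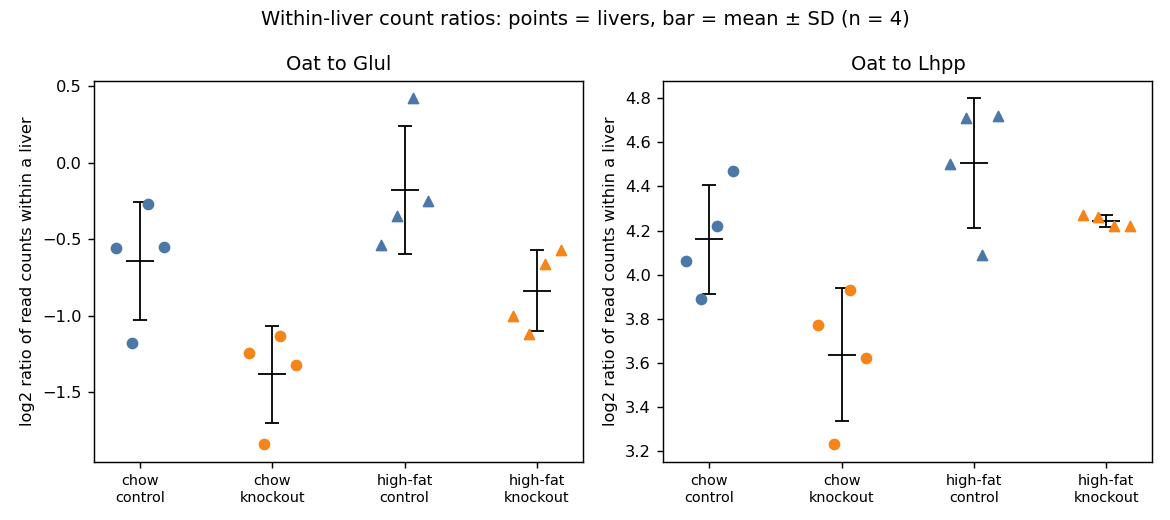
Log2 ratio of Oat to Glul counts (left) and of Oat to Lhpp counts (right) within each liver (points, livers 1 to 4 from left to right; bars, mean ± SD, n = 4). The Oat to Glul ratio averaged -1.38 in chow knockouts and -0.18 in high-fat controls, and the 4 high-fat knockouts held nearly one ratio of Oat to Lhpp, 4.24 ± 0.03.

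Slc1a2 (ENSMUSG00000005089; chromosome 2, 102658659 to 102790784, plus strand) encodes a glutamate transporter that brings glutamate into the perivenous hepatocytes. It was at 214, 286, 318 and 288 CPM in chow controls and 507, 275, 239 and 239 in chow knockouts. High-fat controls had 483, 440, 226 and 262 CPM and high-fat knockouts 222, 182, 254 and 225. Chow knockout 1 stood far above its group, the high-fat controls split into a high and a low pair, and the genotypes overlapped on both diets. The log2 fold changes were 0.19 (SE 0.26) on chow, or -0.13 without chow knockout 1, and -0.68 (SE 0.26) on the high-fat diet.

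Rhbg (ENSMUSG00000104445; chromosome 3, 88242874 to 88254709, minus strand), an ammonium transporter of the basolateral membrane, had the lowest counts of the 10 genes. It was at 1.75 to 2.71 CPM in controls and 0.415 to 3.41 in knockouts on chow, and at 2.17 to 5.29 and 2.45 to 5.35 in controls and knockouts on the high-fat diet, with overlap among all 4 groups. Its log2 fold changes with genotype were -0.33 (SE 0.44) and 0.05 (SE 0.42).

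Rgn (ENSMUSG00000023070; chromosome X, 20549787 to 20562089, plus strand) encodes regucalcin, a calcium-binding lactonase. It was at 1576, 1540, 1809 and 1230 CPM in chow controls and 1311, 1425, 1508 and 1621 in chow knockouts. It was at 855, 1459, 2243 and 1639 CPM in high-fat controls and 1038, 975, 1238 and 1332 in high-fat knockouts. High-fat controls 1 and 3 bracketed all other livers, as the lowest and highest values of the 16. The log2 fold changes with genotype were -0.07 (SE 0.22) and -0.44 (SE 0.22), and the second was -0.19 without high-fat control 3.

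The 4 Wnt readouts overlapped between genotypes on both diets. Axin2 (ENSMUSG00000000142; chromosome 11, 108920349 to 108950783, plus strand), a scaffold of the complex that degrades beta-catenin, was at 6.99, 4.49, 6.57 and 9.06 CPM in chow controls and 9.66, 8.23, 7.31 and 5.12 in chow knockouts. High-fat controls had 11.9, 10.2, 3.25 and 7.25 CPM, and high-fat knockouts had 8.99, 14, 17.9 and 8.12. Its highest values were in high-fat knockouts 2 and 3 and its lowest in high-fat control 3. The log2 fold changes were 0.15 (SE 0.34) on chow and 0.59 (SE 0.33) on the high-fat diet, or 0.35 without high-fat control 3.

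Lgr5 (ENSMUSG00000020140; chromosome 10, 115450311 to 115587780, minus strand), a receptor for R-spondins, ranged from 5.19 to 8.03 CPM in chow controls and 3.44 to 10.5 in chow knockouts. On the high-fat diet it ranged from 4.67 to 13.8 in controls and from 7.72 to 11.9 in knockouts. The group means lay between 6.5 and 9.1 CPM and the genotype log2 fold changes were -0.12 (SE 0.34) and 0.02 (SE 0.33).

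Tbx3 (ENSMUSG00000018604; chromosome 5, 119670669 to 119684724, plus strand), a transcriptional repressor of the T-box family, was at 32.5, 12.7, 24.9 and 27.5 CPM in chow controls and 26, 41.4, 25.8 and 14.1 in chow knockouts. High-fat controls had 35.8, 34.3, 11.4 and 23.7 CPM, and high-fat knockouts had 18.6, 36.3, 43.6 and 17.9. The spread within each group exceeded any difference between means, which ran only from 24.4 to 29.1 CPM. The log2 fold changes were 0.14 (SE 0.38) and 0.15 (SE 0.38). The antisense gene Tbx3os1 on the opposite strand had 11 to 67 counts per liver, against 167 to 818 for Tbx3.

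Rnf43 (ENSMUSG00000034177; chromosome 11, 87662722 to 87735539, plus strand) encodes a ubiquitin ligase that removes Frizzled receptors from the cell surface and so damps the signal. It was at 27.7, 16.3, 18.7 and 28.3 CPM in chow controls and 24.5, 24.6, 23 and 13.3 in chow knockouts. It was at 37.8, 33.4, 20.4 and 26.9 CPM in high-fat controls and 28.5, 37, 45 and 30.2 in high-fat knockouts. All high-fat knockouts were above all chow knockouts, while the genotypes overlapped on both diets, with log2 fold changes of -0.09 (SE 0.24) and 0.25 (SE 0.23). A sense-intronic model inside the gene, 1110028F11Rik, had 8 to 50 counts per liver, against 195 to 844 for Rnf43.

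Within groups, the same livers tended to be low or high for several of these readouts. Axin2, Tbx3 and Rnf43 were all lowest in chow control 2, in chow knockout 4 and in high-fat control 3, and all highest in high-fat knockout 3. In high-fat knockouts the lowest liver was 4 for Axin2 and Tbx3 and 1 for Rnf43. Lgr5 followed this order in high-fat controls, where liver 3 was again lowest, but in chow controls its lowest liver was 1. In chow knockouts its lowest liver was 2 (3.44 CPM, with liver 4 at 3.62), and in high-fat knockouts its highest was 1. High-fat control 3 was also the lowest of its group for Glul, Slc1a2 and Rhbg and the highest for Lhpp and Rgn. That liver had the lowest unspliced share of all 16 and Malat1, a nuclear RNA, at 180 CPM against 1021 to 4028 in the other high-fat controls, and the part of this in the gene values was not tested. In the fit that held the unspliced share, all 4 readouts were below 0 in knockouts. They ran from -0.70 (Lgr5) to -0.29 (Tbx3) on chow and from -0.61 (Lgr5) to -0.01 (Axin2) on the high-fat diet. The share itself moved with genotype, so that fit cannot tell share and genotype apart. It called 0 of all tested genes in knockouts against controls on either diet.

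**Figure D5:**
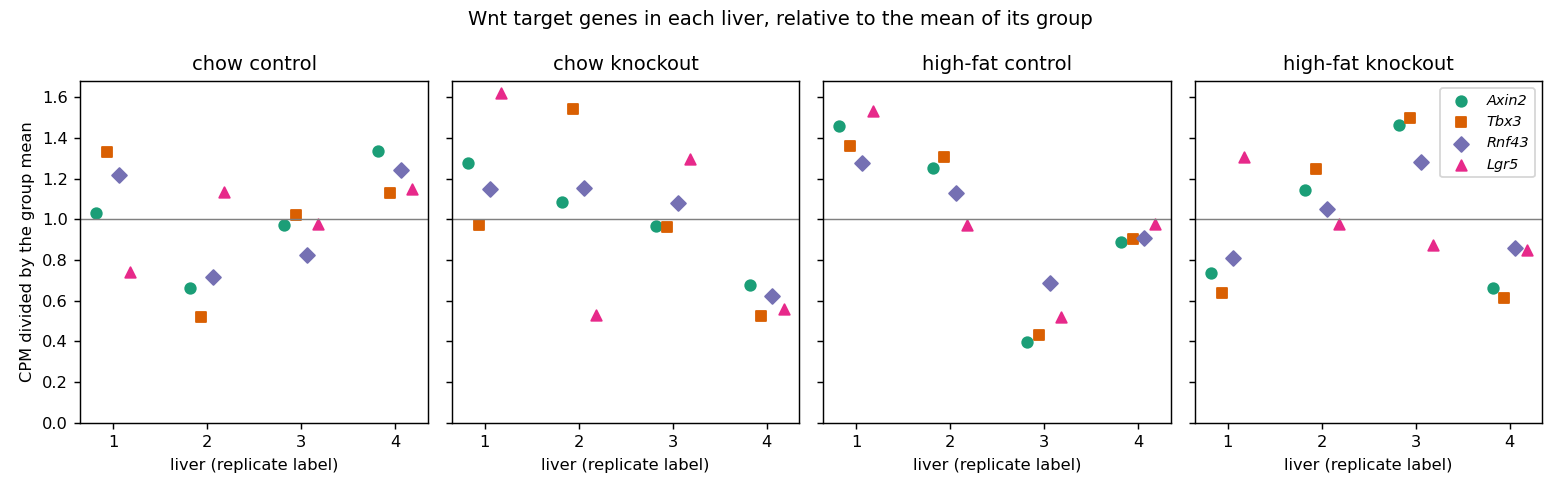
CPM of Axin2, Tbx3, Rnf43 and Lgr5 in each liver divided by the mean of its group (linear axis; 1 panel per group, livers 1 to 4 along the axis). Axin2, Tbx3 and Rnf43 lay below 1 together in chow control 2, chow knockout 4 and high-fat control 3 and stood above 1 together in high-fat knockout 3.

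The effect of the high-fat diet was tested within each genotype. The diet contrasts share livers with the genotype contrasts that chose the members, so the p values of members below are not independent of that choice. In control livers the high-fat diet left 0 of the 10 members called by edgeR (1.83% of all tested genes were called in either direction). Of the 10, 1 was under an unadjusted p of 0.05 (17.1% of all genes), DESeq2 called 1 (5.53% of all genes) and limma-voom 0. The gene was Oat in each case. All 10 log2 fold changes were above 0, with a median of 0.30 against 0.01 over all genes, where 48.7% were below 0. Oat was the 1 member whose high-fat controls all lay above the chow controls (3.21% of all genes were so placed). Its log2 fold change was 0.55 (SE 0.18, edgeR adjusted p = 0.112), and DESeq2 gave an adjusted p of 0.0336. On log2(CPM + 1), the difference was 0.58 (exact permutation p = 0.0286, two-sided), the smallest value that 4 against 4 livers can give. The unspliced share differed between these groups too, and in a fit that held it as a covariate the changes of Glul, Slc1a2, Rhbg, Axin2, Lgr5 and Tbx3 were below 0.

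In knockout livers the high-fat diet again left 0 of 10 called by edgeR (10.6% of all genes called), with 3 under an unadjusted p of 0.05 (28.8% of all genes), 1 called by DESeq2 (Rnf43, with 15.8% of all genes) and 0 by limma-voom. Rnf43, 1 of the 10 members with every high-fat liver above every chow liver (12.1% of all genes), averaged 35.2 ± 7.5 CPM against 21.4 ± 5.41 (SD, n = 4). Its log2 fold change was 0.72 (SE 0.24, edgeR adjusted p = 0.0579). The adjusted p was 0.0311 with DESeq2, 0.0318 with these groups fitted alone and 0.0379 with upper-quartile scaling, and in the fit that held the unspliced share the change was 0.27 (edgeR adjusted p = 0.544). Oat was at 0.44 (SE 0.18, edgeR adjusted p = 0.113) and Rhbg at 0.94 (SE 0.44, edgeR adjusted p = 0.163). By the exact permutation test the Oat difference of 0.44 had p = 0.114, and with CPM from plain total counts it was 0.78 with p = 0.0286. Axin2 was at 0.70 (SE 0.34, edgeR adjusted p = 0.178) and Lgr5 at 0.50 (SE 0.34, edgeR adjusted p = 0.346). Slc1a2 had the largest negative value, -0.51 (SE 0.26, edgeR adjusted p = 0.199). Lhpp, Glul, Rgn and Tbx3 lay between -0.36 and 0.12.

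The difference of the genotype contrast between diets, built from the contrasts that chose the genes, is likewise a description. It was under the threshold for 0 of 10 (0% of all genes were called by edgeR), with 1 member under an unadjusted p of 0.05 (11.3% of all genes) and 0 called by DESeq2 or limma-voom. That member was Slc1a2, at -0.86 (SE 0.36). For Oat the term was -0.11 (SE 0.25) and for Lhpp -0.40 (SE 0.22). The diet contrasts and the genotype contrasts share livers, so a high value in high-fat controls enters both as a diet difference and as a knockout difference.

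The counts of the gene lists that follow stand against all tested genes, of which 9.52% were under an unadjusted p of 0.05 in chow knockouts and 21.4% in high-fat knockouts, each against controls, and 17.1% for diet in controls and 28.8% for diet in knockouts. DESeq2 called 0.348%, 4.41%, 5.53% and 15.8% of all genes in the same order. The shares called by edgeR were 0.0139%, 0.111%, 1.83% and 10.6%, and those called by limma-voom 0.0209%, 0.216%, 1.24% and 11%.

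Among the signals that feed the pathway, 11 of 22 Wnt ligands, R-spondins and secreted modulators passed the filter, and edgeR called 0 of them in the 2 genotype and 2 diet comparisons, as did DESeq2 and limma-voom. At an unadjusted p of 0.05, 1 was under in high-fat knockouts against controls and 1 in the diet comparison of knockouts. The first was Wnt5b at -0.70 (SE 0.30, edgeR adjusted p = 0.192). Wnt2, an endothelial ligand of the central vein, was at -0.60 (SE 0.32, edgeR adjusted p = 0.284) there. The other central vein endothelial markers did not share this value in high-fat knockouts. Selp was at 0.97 (SE 0.38, edgeR adjusted p = 0.16), Wnt9b at 0.14, Rspo3 at 0.02 and Thbd at -0.03. The gene under 0.05 in the diet comparison of knockouts was Porcn, the acyltransferase that lipidates Wnt proteins, at -0.85 (SE 0.33, edgeR adjusted p = 0.0957). Summed CPM of 5 central vein endothelial markers overlapped among all groups, at 22.3 to 25.2 in controls and 16.7 to 28.5 in knockouts on chow, against 24.6 to 33.9 and 21.3 to 32.5 on the high-fat diet. Summed markers of other cells of the liver also overlapped between genotypes on each diet. Over all livers they were at 381 to 644 CPM for 10 liver endothelial markers and 268 to 742 for 7 Kupffer cell markers. They were at 274 to 399 for 6 stellate cell, 37.9 to 117 for 6 biliary and 1.48 to 12.1 for 6 lymphocyte markers. Such sums can hide single markers. The stellate marker Pdgfrb was at 0.64 (SE 0.19, edgeR adjusted p = 0.108) in high-fat knockouts, where 1 of the 6 was below 0. It was at 0.82 (edgeR adjusted p = 0.0144) for diet in knockouts, where 2 of the 6 were below 0. The low-count lymphocyte marker Cd8a was at 3.29 (SE 0.76, edgeR adjusted p = 0.084) in high-fat knockouts, where 1 of 3 tested was below 0.

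Of 30 receptors and signal transducers, 26 were tested and edgeR called 0 in any of the 4 comparisons. The counts at an unadjusted p of 0.05 were 1 in chow knockouts, 0 in high-fat knockouts, 0 for diet in controls and 4 for diet in knockouts. DESeq2 called 2 in the last and 0 elsewhere, and limma-voom 0. Fzd8, a Frizzled receptor, was at -0.93 (SE 0.26, edgeR adjusted p = 0.353) in chow knockouts and at 0.75 (SE 0.26, edgeR adjusted p = 0.0691) for diet in knockouts. Btrc, which marks beta-catenin for degradation, was at 0.41 (SE 0.15, edgeR adjusted p = 0.0772) in the latter.

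Other Wnt target genes gave the same counts of 0, with 7 of 9 tested, 1 each under an unadjusted p of 0.05 in chow knockouts and for diet in controls, and 0 called by DESeq2 or limma-voom. Tnfrsf19 was at -0.69 (SE 0.32) in chow knockouts, and Nkd1, an inhibitor of Wnt signalling, at 0.53 (SE 0.23, edgeR adjusted p = 0.246) for diet in controls. Notum, a secreted enzyme that inactivates Wnt proteins, was at -0.25 (SE 0.20) in chow knockouts and 0.34 (SE 0.20) for diet in knockouts.

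Of the other pericentral hepatocyte genes, all 21 were tested. In chow knockouts 0 were called by edgeR, DESeq2 or limma-voom and 0 were under an unadjusted p of 0.05, with a median log2 fold change of -0.23 against -0.01 over all genes. On chow 15 of 21 were below 0 (51% of all genes were). In high-fat knockouts 17 of 21 were below 0 (47.8% of all genes were), with the same median of -0.23 against 0.03. Of these 21 genes, 7 were under an unadjusted p of 0.05 in high-fat knockouts. There 1 rose and 1 fell in edgeR, while DESeq2 called 5 and limma-voom 2. Gstm3, a glutathione transferase, rose by 2.52 (SE 0.32, edgeR adjusted p = 0.00376) and Cyp2c37, a cytochrome P450, fell by 1.44 (SE 0.26, edgeR adjusted p = 0.0398). With diet in controls 1 rose, Nr1i3, the constitutive androstane receptor, at 1.34 (edgeR adjusted p = 0.00909), and 2 fell, Gstm1 at -1.12 (edgeR adjusted p = 0.00614) and Gstm3 at -1.53 (edgeR adjusted p = 0.0162). With diet in knockouts Nr1i3 rose again, at 1.03 (edgeR adjusted p = 0.0139), as did Slc13a3, a dicarboxylate transporter, at 1.14 (edgeR adjusted p = 0.0127). Cyp2c29 and Cyp2c37 fell there by 1.40 (edgeR adjusted p = 0.00219) and 1.17 (edgeR adjusted p = 0.0113).

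Of 24 enzymes and carriers of ornithine, proline and glutamine, 21 were tested. In knockouts against controls 0 passed with edgeR on either diet, with 5 and 9 under an unadjusted p of 0.05 on chow and on the high-fat diet. DESeq2 called 0 and 4 and limma-voom 0 and 1. In high-fat knockouts 14 of the 21 were below 0 (47.8% of all genes were), with a median of -0.22 against 0.03 over all genes. There 4 were lower in every knockout than in every control (7.78% of all genes) and 2 were higher in every knockout (5.46%). The 2 smallest p values of the list belonged to genes that were higher. Slc1a4, a neutral amino acid carrier, was at 1.18 (SE 0.25, edgeR adjusted p = 0.0664) and Slc1a5 at 1.64 (SE 0.43, edgeR adjusted p = 0.0953). Arg1, the arginase that makes ornithine in the urea cycle, was at -0.72 (SE 0.22, edgeR adjusted p = 0.108) in high-fat knockouts. Gpt and Got2, aminotransferases that exchange amino groups with glutamate, were at -0.55 (SE 0.19) and -0.33 (SE 0.12) in chow knockouts. With diet in knockouts 2 rose and 2 fell. Slc1a4 rose by 1.29 (SE 0.25, edgeR adjusted p = 0.00648) and Prodh, the first enzyme of proline breakdown, by 0.78 (SE 0.21, edgeR adjusted p = 0.0283). Slc38a2, a glutamine carrier, fell by 1.10 (SE 0.24, edgeR adjusted p = 0.0101) and Got1 fell by 0.61 (SE 0.16, edgeR adjusted p = 0.0274). With diet in controls 0 passed, with 5 under an unadjusted p of 0.05, 1 called by DESeq2 and 0 by limma-voom.

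Periportal genes, from the other end of the lobule, served as a contrast. In high-fat knockouts 19 of the 21 tested were below 0 (47.8% of all genes were) and their median was -0.37, and edgeR called 0, with 10 under an unadjusted p of 0.05, 3 called by DESeq2 and 0 by limma-voom. On chow the median was -0.14 and 0 were called by any of the 3 tools, with 3 under an unadjusted p of 0.05. Beside the Oat values of -0.96 and -1.07, the medians on chow and on the high-fat diet were below 0 but smaller in size for both zones. They were -0.23 and -0.23 for the other pericentral genes and -0.14 and -0.37 for the periportal genes. Single genes of these lists lay further below 0 than Oat. In high-fat knockouts the pericentral Cyp2c37 was at -1.44 and the periportal G6pc at -1.96, and in chow knockouts the periportal Apoa4 was at -1.62. Oat was chosen with these contrasts known, and whether it differs from either zone's genes was not tested. With diet in knockouts 2 periportal genes rose and 5 fell. Cyp17a1 rose by 2.02 (edgeR adjusted p = 0.0195) and Aldh1b1 by 0.64 (edgeR adjusted p = 0.0469). Among those that fell were Pck1 at -1.27 (edgeR adjusted p = 0.00229) and G6pc at -2.68 (edgeR adjusted p = 0.00906), both enzymes of glucose production. With diet in controls 1 rose, Cyp17a1 at 2.90 (edgeR adjusted p = 0.00856), and 1 fell, Cdh1 at -1.12 (edgeR adjusted p = 0.00493). There 5 were under an unadjusted p of 0.05, with 4 called by DESeq2 and 2 by limma-voom.

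The 5 genes whose levels most resembled those of Oat over the 16 livers were Suox (sulfite oxidase, r = 0.94 of log2 CPM), Slc17a3 (an anion transporter, 0.89), Gcdh (glutaryl-CoA dehydrogenase, 0.88), Aldh1a1 (a retinaldehyde dehydrogenase, 0.86) and Prnp (the prion protein, 0.85). Within groups, with the group means removed, the same values were 0.49, 0.41, 0.57, 0.72 and 0.25. Aldh1a1 averaged 1497 CPM in controls and 1103 in knockouts on chow, and 2056 and 1400 on the high-fat diet, the same order of groups as Oat. Lhpp came 18th by this measure among 9883 genes compared, with r = 0.81, and Glul 710th, with r = 0.51. These are descriptions over livers that share genotype and diet, with no test.

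For Glul the closest genes were Mapk9 (a stress-activated kinase, r = 0.81), Lpgat1 (an acyltransferase, 0.80), Stt3b (an oligosaccharyltransferase subunit, 0.74), Kpnb1 (a nuclear import receptor, 0.73) and Abca5 (a lipid transporter, 0.73). Their values with group means removed were 0.92, 0.74, 0.77, 0.88 and 0.74, so the likeness to Glul lay within groups. Slc1a2 was 55th, with r = 0.58, and Rgn had r = -0.34. With group means removed, these were 0.50 and -0.77, and Lgr5 had 0.63.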

How the data were processed

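RNA from pieces of 16 mouse livers was sequenced from stranded, ribosomal RNA-depleted libraries, per the labels' protocols. The authors deposited 1 table of raw read counts per Ensembl gene (53801 identifiers), with values that are whole numbers and not normalized. STAR 2.5.4a, featureCounts 1.5.1, DESeq2 and GRCm38 are named in the submitters' processing notes; the sources used here do not give their settings for strand or multimapped reads. Positions, symbols and exon lengths came from GENCODE M21 on GRCm38 (53706 identifiers matched).

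Counts were scaled by TMM and tested with edgeR 4.0.16 (R 4.3.3): genes passing filterByExpr with a minimum count of 10 (14351), 1 model of 4 groups over all 16 livers, quasi-likelihood F tests, and Benjamini-Hochberg adjustment over all tested genes at 0.05. The common biological coefficient of variation was 0.247. Single genes were compared by exact permutation on log2(CPM + 1), and correlations used 100000 resamples within groups (scipy 1.17.1). Alternatives were DESeq2 1.42.0, limma-voom (limma 3.58.1), other scalings, no filter, the unspliced share as a covariate, the compared groups alone, and livers left out. The scripts were tested on simulated data. Replicate libraries differed beyond counting noise in all 24 pairs within groups. P-values measure the spread between these livers.

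Named were all 10 members, Degs1, each pathway list's called genes or up to 3 of smallest p in a comparison, the 5 genes most like Oat or Glul by Pearson's r (mean log2 CPM at least 2), and tested genes within 500 kb of Oat; the text gives a selection of these. Members, lists and rules were chosen with earlier results of these data known.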

Additional observations from a re-analysis of the deposited data

Results flagged for a closer look

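Within each group of 4 livers, the gap of the highest or lowest liver to its neighbour was divided by the range of the group and compared with the 95% critical value of Dixon's test. Of 40 combinations of gene and group, 2 exceeded it, and chance flags about 1 in 20. Slc1a2 was at 507 CPM in chow knockout 1, far above the 239 to 275 CPM of the other chow knockouts. Rnf43 was at 13.3 CPM in chow knockout 4, well below the 23 to 24.6 CPM of the other chow knockouts.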

How the results depend on the processing

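Oat kept a negative fold change in knockouts under every alternative run, from -1.07 to -0.84 on chow and from -1.16 to -0.97 with the high-fat diet. Lhpp did so too, from -0.47 to -0.31 and from -0.92 to -0.64. The number of members called was less stable (a description for the genotype contrasts). For knockout on chow it was 0, but 1 without the count filter and 1 with DESeq2 (Oat each time), and 0 to 1 with a liver left out. For knockout on the high-fat diet it was 2, but 1 with DESeq2 size factors and 1 without the 2 livers that stood apart (high-fat control 3 and chow knockout 1), 0 with the unspliced share as covariate, 0 with only these groups fitted, 3 without a filter (Slc1a2 added), and 0 to 2 with a liver left out. For diet in controls it was 0, with 1 by DESeq2 and 0 to 0 with a liver left out. For diet in knockouts it was 0, but 1 with upper-quartile factors, 2 without a filter (Axin2 and Rnf43), 1 with the unspliced share (Slc1a2, at -1.03 with an adjusted p of 0.0271), 1 with only these groups, 1 with DESeq2, 2 without the 2 livers (Rhbg and Rnf43), and 0 to 1 with a liver left out (Rnf43 without high-fat control 1 or 3). Calls over all genes moved as well. On chow 0 genes were higher and 2 lower in knockouts in the main fit, and 199 and 109 of 36204 without a filter. In high-fat knockouts the counts were 9 and 7, then 446 and 518 without a filter and 0 and 0 with the unspliced share. For diet in knockouts they were 748 and 768 of 14351. Without the 2 livers they were 1636 and 1637 of 14604, and with only these groups 1431 and 1362 of 13769. Without a filter they were 1157 and 738 of 36204. The cause was not tested.

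Several values changed sign. For knockout on chow the unspliced share as covariate gave -0.20 for Slc1a2, 0.26 for Rgn, -0.38 for Axin2 and -0.29 for Tbx3, and Slc1a2 was at -0.13 without the 2 livers. With the high-fat diet it gave -0.50 for Rhbg, 0.10 for Rgn, -0.01 for Axin2, -0.61 for Lgr5, -0.37 for Tbx3 and -0.14 for Rnf43, and without the 2 livers Rhbg was at -0.09, Lgr5 at -0.17 and Tbx3 at -0.08. With a liver left out, the chow values of Slc1a2, Rhbg, Rgn, Lgr5, Tbx3 and Rnf43 and the high-fat values of Rhbg, Lgr5 and Tbx3 also crossed zero. For diet in controls the unspliced share as covariate gave -0.17 for Glul, -0.12 for Slc1a2, -0.01 for Rhbg, -0.46 for Axin2, -0.29 for Lgr5 and -0.50 for Tbx3. Rgn was at -0.06 with limma-voom and -0.22 without the 2 livers. With a liver left out, Rgn ranged from -0.22 to 0.24 and Tbx3 from -0.09 to 0.35. For diet in knockouts the same covariate gave 0.04 for Lhpp, 0.15 for Rgn, -0.10 for Axin2, -0.20 for Lgr5 and -0.59 for Tbx3, and upper-quartile factors gave 0.01 for Glul. With a liver left out, Glul ranged from -0.23 to 0.02 and Tbx3 from -0.13 to 0.42. CPM from total counts gave 0.24 for Glul and 0.78 for Oat in the exact test of diet in knockouts. The interaction of Tbx3 was -0.00 with DESeq2 size factors, -0.09 with the covariate, -0.01 with DESeq2 and -0.25 without the 2 livers. With a liver left out it ranged from -0.26 to 0.30 for Tbx3, -0.23 to 0.00 for Oat and -0.08 to 0.44 for Lgr5. No paired analysis was possible because the labels carry only individual animal numbers, none shared between groups. Counts of 7 to 103 per liver limit what can be said of Rhbg, and those of Axin2 and Lgr5 are not much higher.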
